A study of Mus musculus with 21 samples.

Results

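The genes described here encode 9 RNA-binding proteins that have been linked to amyotrophic lateral sclerosis (ALS) or to stress granules, namely Ewsr1, Taf15, Matr3, Tia1, Tial1, Atxn2, G3bp1, G3bp2 and Elavl3. They were taken by symbol from the 48474 rows of a mouse count table, and all 9 were among the 18248 genes that passed the expression filter. Bulk mRNA sequencing had been performed on the neocortex of 11 wild-type and 10 rNLS8 mice, in batches labelled A, with 4 wild-type and 3 rNLS8 animals, and B, with 7 of either genotype. rNLS8 mice carry a NEFH-tTA driver and a tetO-hTDP-43ΔNLS transgene, so human TDP-43 that lacks a working nuclear localization signal is made mainly in neurons, through the promoter of neurofilament heavy chain, with a little expression in oligodendrocytes. The mice labelled wild-type are described as monogenic littermates, which carry 1 of these alleles, and which one is not given. All mice were on a C57BL/6J background. All animals of both groups had been injected intracerebroventricularly, at 17 to 19 weeks of age, with 350 µg of a non-targeting antisense oligonucleotide (volume 10 µL). Doxycycline at 200 mg/kg of diet kept the transgene off until 2 weeks after that injection, and brains were taken after 3 weeks without it. The labels name the tissue as neocortex and the study's methods as brain cortex, whereas hippocampus is given for rNLS8 in a figure legend of the study. No label states the sex of the mice.

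These proteins bind RNA through RNA recognition motifs or related domains, and most of them also contain disordered, low-complexity stretches. Under stress, when phosphorylation of eIF2α slows translation initiation, untranslated mRNA and proteins such as G3BP1, G3BP2, TIA1, TIAL1 and ataxin-2 condense into cytoplasmic stress granules. EWSR1 and TAF15 belong to the FET family and reside mostly in the nucleus, as does matrin-3. ELAVL3 is a neuronal Hu protein that binds AU- and U-rich elements of mRNA. Rare variants of several of these genes have been reported in ALS, and TDP-43 itself, encoded by Tardbp, binds GU-rich RNA and forms the cytoplasmic inclusions of most ALS cases.

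GU-rich sequence was looked for first, because it is the preferred binding sequence of TDP-43. The search used the letters TGTGTG, with U for T in RNA, on the sense strand of the principal transcript of each gene, counting overlapping matches. Of 14147 protein-coding transcripts, 73.5% held at least 1 match, with a median of 2. The G3bp1 transcript of 6703 bases held 46, all in its 3′ UTR. Only 0.533% of 1688 transcripts within 20% of its length held as many. The longest uninterrupted TG alternation in G3bp1 was 54 bases, where the median over transcripts was 7. Stretches of 30 bases from this 3′ UTR (chromosome 11, GRCm38, plus strand) show that alternation, with capitals marking the TG run. The first lies at chr11:55501014-55501043 and shows 25 bases of the 54-base run, another at chr11:55502150-55502179 holds a run of 20 bases, and a last one at chr11:55503340-55503369 holds a run of 10 bases.
G3bp1 first stretch: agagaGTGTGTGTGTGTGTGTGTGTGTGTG
G3bp1 second stretch: agctcTGTGTGTGTGTGTGTGTGTGctctc
G3bp1 last stretch: caggtggttcTGTGTGTGTGcaggagctgt
The other transcripts held far fewer matches. Tia1 had 4, Matr3 and Tial1 had 2 each, Atxn2 and Elavl3 had 1 each, and Ewsr1, Taf15 and G3bp2 had 0. The Atxn2 match was in the coding sequence, and those of Tia1, Tial1, Matr3 and Elavl3 were in the 3′ UTR. A match is a property of the letters only and was not tested as a binding site.

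Gene counts summed to 20700912 to 22263809 per mouse, and TMM scaling factors ranged from 0.962 to 0.999 in wild-type and from 1.002 to 1.07 in rNLS8 mice. Tardbp, the mouse counterpart of the transgene, rose from a mean of 2574 to 4109 normalized counts, a log2 fold change of 0.62 (SE, the standard error, 0.071, adjusted p = 1.5e-07, edgeR's quasi-likelihood test). Batch B gave 0.79 (adjusted p = 1.42e-10) and batch A 0.26 (adjusted p = 0.191), and the difference between them had an unadjusted p of 7.31e-06 and an adjusted p of 0.133 in edgeR's test of genotype by batch. The rNLS8 mouse T61340 (mice are named by their libraries) had 2363 normalized counts of Tardbp, inside the wild-type range of 2253 to 2827, while the other rNLS8 mice had at least 2903. Whether reads of the human transgene were counted on Tardbp was not tested. Eif2ak2, an eIF2α kinase, had 321 normalized counts in mouse T61340 and at most 153 in any wild-type mouse. Neuron markers fell in 5 of 8 cases, and their summed level was 5877 to 7289 CPM in wild-type and 4266 to 5682 CPM in rNLS8 mice. Of the astrocyte markers, Gfap rose and 5 of 6 fell (4071 to 5342 against 3202 to 4486 CPM), and of the microglia markers 4 of 6 rose and 1 fell (314 to 357 against 329 to 448 CPM). None of 6 oligodendrocyte markers passed the test (4282 to 7200 against 4099 to 7288 CPM). The neocortical markers Tbr1, Cux2, Rorb, Fezf2, Bcl11b and Foxp2 were all expressed, and choroid plexus markers summed to between 13.5 and 2152 CPM in wild-type mice and between 23.9 and 1108 CPM in rNLS8 mice, with 0 of 4 past the test. Of 5 striatum markers, Drd1 fell (-0.66, adjusted p = 0.0362), and their sum was 169 to 904 CPM in wild-type against 157 to 746 CPM. Of 5 endothelial markers, Flt1 fell (-0.17, adjusted p = 0.0062), with sums of 164 to 198 against 140 to 178 CPM. The part of these shifts in the results below was not tested. In bulk tissue, fewer cells of a type and less RNA per cell cannot be told apart.

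Over all 21 mice, 5 of the 9 genes differed between the genotypes. Atxn2 and Elavl3 rose, and G3bp2, Taf15 and G3bp1 fell, whereas Ewsr1, Matr3, Tia1 and Tial1 did not pass the threshold. The background was high, since 44.7% of all genes tested passed an adjusted p of 0.05 in this comparison, 23.0% as higher and 21.7% as lower in rNLS8 mice. The changes were small. The median log2 fold change of the 9 genes was -0.10 against -0.00067 over all genes tested, and their median absolute change was 0.12 against 0.18. Scaling by library size alone moved the split over all genes from 51.4% to 67.9% higher among those called, with a median shift of 0.076 on the log2 scale. Within batches the background was 11.8% in batch A and 39.1% in batch B. Of the 9 genes, 1 passed in batch A alone (Atxn2) and 4 passed in batch B alone (Atxn2, Elavl3, Taf15 and G3bp2).

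**Figure D1:**
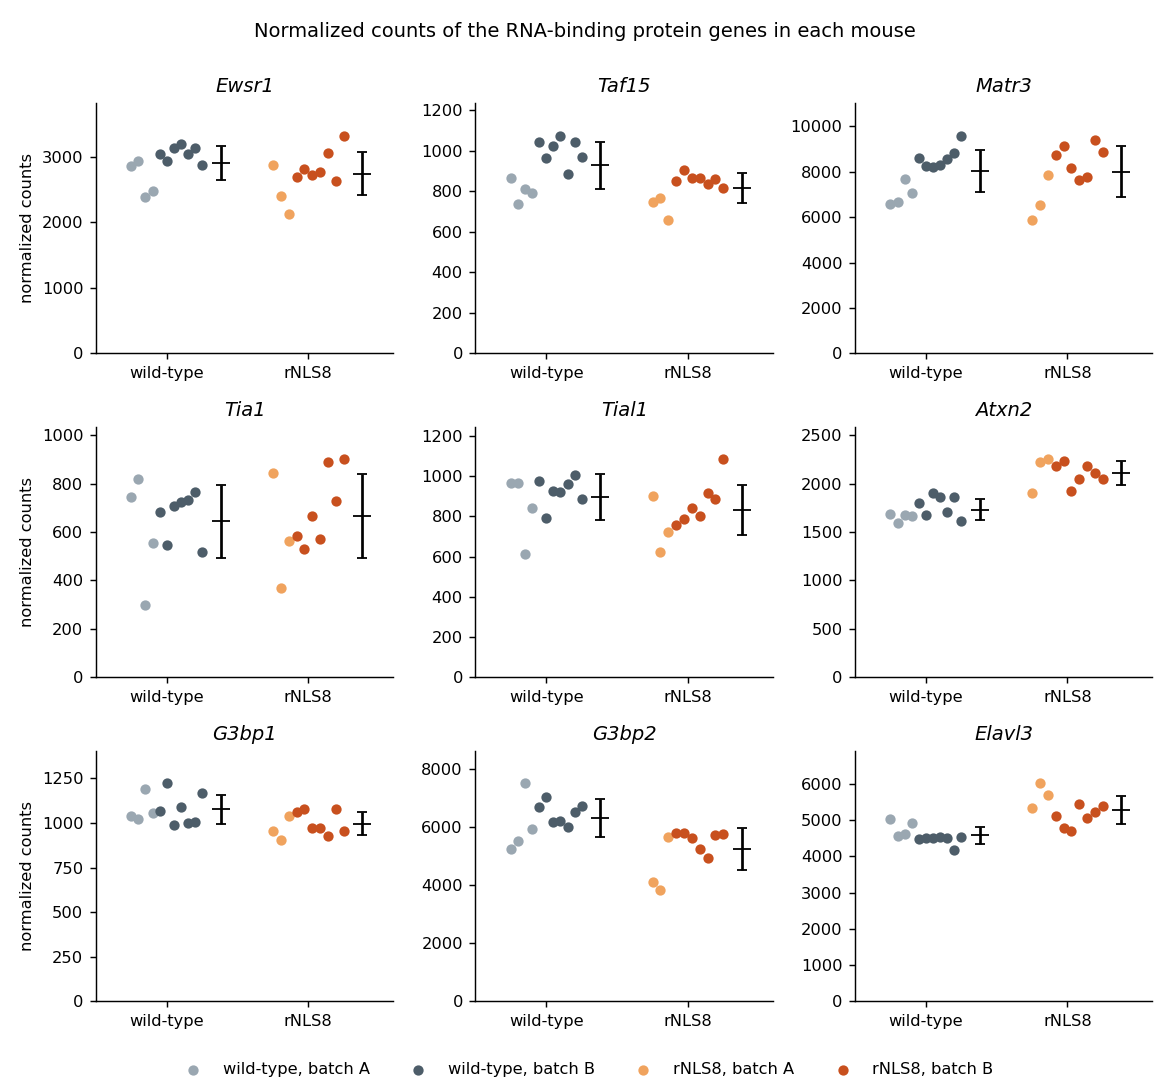
Normalized counts (y axis, from 0) of each of the 9 genes in 11 wild-type and 10 rNLS8 mice (x axis), with 1 point per mouse, colours for genotype and batch, and the mean ± SD beside each group. All 10 rNLS8 mice lie above all wild-type mice for Atxn2 and 8 of 10 for Elavl3, while Tia1 shows the widest spread within both genotypes.

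Levels of the genes relative to each other were compared per length, as CPM per kilobase of the principal transcript. In wild-type mice G3bp2 was the most abundant of the 9 at 97.9 ± 10.1 (SD, n = 11), above Matr3 at 60.1 ± 7.04 in every mouse. Ewsr1 followed at 52.6 ± 4.71 and overlapped with Matr3. Elavl3 reached 42.8 ± 2.13, overlapping with Ewsr1, and lay above Taf15 at 21.02 ± 2.61 in every mouse. Atxn2 at 18.1 ± 1.11 was below Taf15 in every mouse, although their ranges overlapped. Tial1 (9.43 ± 1.19), G3bp1 (7.53 ± 0.568) and Tia1 (6.74 ± 1.59) formed the low end, and each overlapped with the next. When the union of all annotated exons was used as the length, Matr3 came first at 37.1 ± 4.34 and G3bp2 second at 34.2 ± 3.53 CPM per kilobase, with overlapping ranges. On that scale Atxn2 moved to the eighth place at 5.17 ± 0.317, so these ranks depend on the choice of length.

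**Figure D2:**
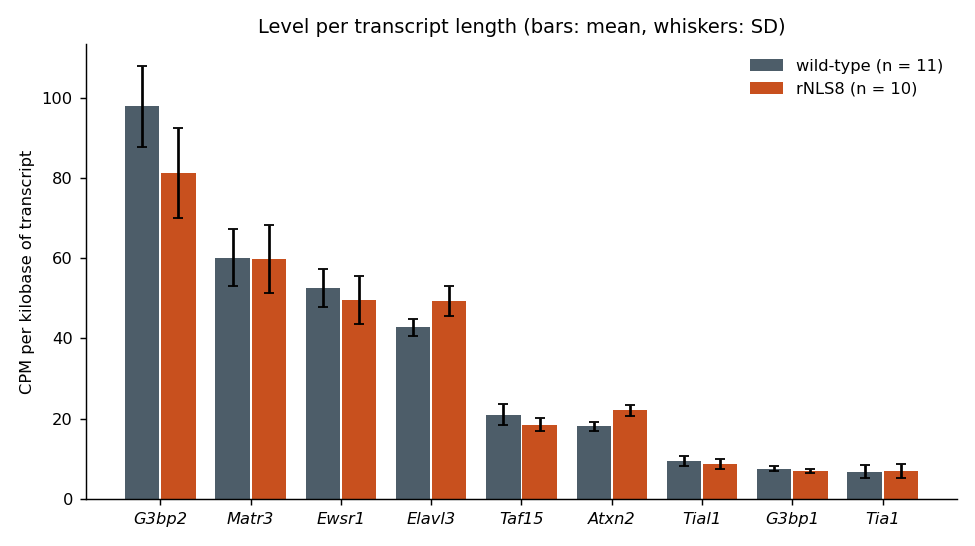
Level per transcript length (y axis, CPM per kilobase of the principal transcript) of the 9 genes (x axis) in wild-type (n = 11) and rNLS8 mice (n = 10), as mean with SD. G3bp2 stands first at 97.9 in wild-type mice and remains first at 81.2 in rNLS8 mice, with G3bp1, Tial1 and Tia1 below 10.

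G3bp1 and G3bp2 encode the proteins that nucleate stress granules, and both fell. G3bp2 (chr5:92052146-92083719, minus strand) ranged from 5254 to 7497 normalized counts in wild-type mice, with a median of 6219, and from 3846 to 5801 in rNLS8 mice, with a median of 5627. All 7 rNLS8 mice of batch B, at 4940 to 5801, were below all wild-type mice of that batch, at 6014 to 7030. In batch A, where the wild-type mice had 5254, 5524, 5946 and 7497 normalized counts, the rNLS8 mice T61340 and T60303 had 3846 and 4119 and mouse T61342 had 5642, within the wild-type range. The log2 fold change was -0.29 (SE 0.067, adjusted p = 0.00114, edgeR), a change of -18.0% with a 95% interval (from the normal quantile and the SE) of -25.1% to -10.2%. G3bp2 passed the threshold in batch B alone (-0.23, adjusted p = 0.000633) and not in batch A alone (-0.39, adjusted p = 0.134).

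G3bp1 (chr11:55469685-55504838, plus strand), whose 3′ UTR holds the TG runs shown above, changed less. Normalized counts ranged from 988 to 1222 in wild-type mice, with a median of 1058, and from 907 to 1079 in rNLS8 mice, with a median of 971. Of the 10 rNLS8 mice, 6 had fewer than the lowest wild-type mouse and the remainder overlapped. The log2 fold change of -0.12 (SE 0.047) had an adjusted p of 0.0451 in edgeR's quasi-likelihood test, close to the threshold. It was no longer past it within batch A (adjusted p = 0.448) or batch B (adjusted p = 0.134), nor when library size was the only scaling, where the log2 fold change was -0.04 (adjusted p = 0.514). Leaving out single mice gave adjusted p from 0.0281 to 0.101, and 12 of the 21 omissions, those of rNLS8 mice T60303, T61340, T_69531, T_70252, T_70261 and T_70267 and of wild-type mice T61334, T61345, T_69523, T_69527, T_70256 and T_70264, ended the call.

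Because a ratio within a mouse does not depend on library scaling, the balance of each pair of paralogs was also tested. The log2 ratio of G3bp1 to G3bp2 counts ranged from -2.70 to -2.34 in wild-type and from -2.59 to -2.08 in rNLS8 mice. It was higher by 0.17 in rNLS8 mice with batch taken into account, or 0.171 against 0.191 as a geometric mean of linear count ratios (p = 0.00161, exact two-sided permutation within batch over 120120 arrangements, and 0.00482 after adjustment over the 3 pairs tested). The difference was 0.13 in batch B (exact p = 0.00874) and 0.27 in batch A (exact p = 0.143, from only 35 arrangements). Thus G3bp2 fell by more than G3bp1, and 2 of 10 rNLS8 mice were above all wild-type mice. The ratio of Tia1 to Tial1 differed by 0.15 (adjusted exact permutation p = 0.151) and that of Ewsr1 to Taf15 by 0.10 (adjusted exact permutation p = 0.151), neither past the threshold.

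The genes below had profiles over the 21 mice closest to that of G3bp2, which had the largest absolute log2 fold change of the 9 in the fit over all mice (-0.286, against 0.282 for Atxn2). This order was not stable, since Atxn2 had the larger one under several alternatives, batch B alone, library size only and edgeR without batch among them, and in several omissions of 1 mouse. Closeness was the root mean square difference in log2 CPM after centring on the wild-type mean of each batch, for which the median over all genes was 0.32. Tmx4, a thioredoxin-related membrane protein of the endoplasmic reticulum, was nearest at 0.051. Prkar1a, a regulatory subunit of protein kinase A, followed at 0.068 and Gnl3l, a nucleolar GTPase, at 0.075. Their log2 fold changes were -0.29, -0.23 and -0.35, and this likeness is a description of levels only.

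Ataxin-2, encoded by Atxn2 (chr5:121711337-121816493, plus strand), binds the poly(A)-binding protein and is a component of stress granules. Repeat expansions of intermediate length in human ATXN2 raise the risk of ALS. Atxn2 had 1590 to 1898 normalized counts in wild-type mice, with a median of 1685, and 1905 to 2249 in rNLS8 mice, with a median of 2145. All 10 rNLS8 mice thus exceeded all 11 wild-type mice, although the lowest of them, T60303 in batch A at 1905, was only just above wild-type mouse T_69532 of batch B at 1898. Atxn2 rose by a log2 fold change of 0.28 (SE 0.041, adjusted p = 4.79e-06, edgeR), a change of 21.6% with an interval of 15.01% to 28.6%. Atxn2 passed the threshold in batch A alone (0.38, adjusted p = 0.0303) as well as in batch B alone (0.24, adjusted p = 0.000268). Exons of Atxn2 share 99 bases with Sh2b3 on the opposite strand. The strand setting of the counting is not given in the sources used here, so reads of such overlaps cannot be told apart. Sh2b3 had a log2 fold change of 0.09 (adjusted p = 0.158). Larger overlaps on the opposite strand are those of G3bp2 with Gm26582 (2050 bases), Matr3 with AC121821.3 (310 bases) and Ewsr1 with Rhbdd3 (258 bases, log2 fold change 0.12, adjusted p = 0.134). On the same strand, Matr3 shares 1754 bases with Gm28285, Tia1 352 with Gm44790, Elavl3 256 with Gm49318 and G3bp1 56 with Mir7652. Gm26582, AC121821.3, Gm28285, Gm44790 and Gm49318 have no row under these symbols in the count table, so their levels could not be examined.

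Atxn2l, the paralog of ataxin-2, had a log2 fold change of the same size, 0.28 (SE 0.081, adjusted p = 0.00654), with more spread. It ranged from 1626 to 2528 normalized counts in wild-type and from 2137 to 3088 in rNLS8 mice, 5 of 10 rNLS8 mice were above all wild-type mice, and within neither batch did it pass (adjusted p = 0.0509 for A, 0.104 for B).

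The Hu proteins moved apart from each other. Elavl3 (chr9:22015005-22052023, minus strand) had 4173 to 5023 normalized counts in wild-type mice, with a median of 4528, and 4713 to 6014 in rNLS8 mice, with a median of 5284. Within each batch all rNLS8 mice were above all wild-type mice, and across batches 8 of 10 were above every wild-type mouse. Elavl3 rose by a log2 fold change of 0.21 (SE 0.036, adjusted p = 3.85e-05, edgeR), a change of 15.8% with an interval of 10.2% to 21.6%. It was 0.19 in batch B alone (adjusted p = 0.00103) and 0.27 in batch A alone (adjusted p = 0.111). Elavl4, the neuronal paralog also called HuD, fell by 40.3%. It ranged from 1338 to 1947 normalized counts in wild-type and from 687 to 1062 in rNLS8 mice with no overlap, and its log2 fold change was -0.75 (adjusted p = 3.53e-09). Elavl1, the ubiquitous member HuR, also fell (log2 fold change -0.35, adjusted p = 2.04e-07). In each batch all of its rNLS8 mice were below all wild-type mice. Elavl2, the remaining neuronal member, had a log2 fold change of 0.0012 (SE 0.074, adjusted p = 0.992), with ranges of 1225 to 1661 and 918 to 1766 normalized counts.

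Of the FET family, Taf15 fell. TAF15 is a nuclear protein associated with transcription initiation and RNA processing. Taf15 (chr11:83473086-83506743, plus strand) had 737 to 1074 normalized counts in wild-type mice, with a median of 963, and 659 to 905 in rNLS8 mice, with a median of 841. The genotypes overlapped across and within batches, and batch A was lower in both genotypes. Batch B held 887 to 1074 in wild-type and 814 to 905 in rNLS8 mice, where 6 of 7 rNLS8 mice were below all wild-type mice. Batch A held 737, 793, 812 and 864 in wild-type and 659, 748 and 766 in rNLS8 mice. This gave Taf15 a log2 fold change of -0.20 (SE 0.041, adjusted p = 0.000332, edgeR), a change of -12.9% with an interval of -17.7% to -7.91%. It was -0.23 in batch B alone (adjusted p = 0.000316) and -0.12 in batch A alone (adjusted p = 0.509). With library size as the only scaling, edgeR gave -0.123 over all mice (adjusted p = 0.0196).

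Ewsr1 (chr11:5069689-5099266, minus strand) had 2385 to 3191 normalized counts in wild-type mice, with a median of 2927, and 2127 to 3320 in rNLS8 mice, with a median of 2740. In batch B, 5 of 7 rNLS8 mice were below all wild-type mice, but mouse T_70267 was the highest of all at 3320. With a log2 fold change of -0.10 (SE 0.053), Ewsr1 did not pass (adjusted p = 0.133). It did so when rNLS8 mouse T60303 (adjusted p = 0.0399) or T_70267 (adjusted p = 0.0473) was left out. The interval of the change ran from -13.1% to 0.294%.

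Matrin-3, a nuclear matrix protein, is encoded by Matr3 (chromosome 18 of GRCm38). It had 6583 to 9594 normalized counts in wild-type mice, with a median of 8273, and 5878 to 9401 in rNLS8 mice, with a median of 8006, and the ranges overlapped almost completely. The log2 fold change was -0.03 (SE 0.051, adjusted p = 0.686), and the interval ran from -8.47% to 5.07%. The larger contrast for Matr3 was between batches. In wild-type mice the means were 7001 ± 495 (SD, n = 4) in batch A and 8628 ± 482 (SD, n = 7) in batch B.

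TIA1 and TIAL1 are closely related proteins of stress granules that also act in alternative splicing. Tia1 (chr6:86404219-86433405, plus strand) had 297 to 820 normalized counts in wild-type mice, with a median of 709, and 370 to 899 in rNLS8 mice, with a median of 626. The spread between mice of 1 genotype was the widest of the 9 genes, with coefficients of variation of 23.5% (wild-type) and 26.1% (rNLS8). Tia1 had a log2 fold change of 0.03 (SE 0.149, adjusted p = 0.886), and its interval ran from -16.6% to 25.2%. Tial1 (chr7:128439777-128461717, minus strand) had 613 to 1007 normalized counts in wild-type mice, with a median of 925, and 622 to 1082 in rNLS8 mice, with a median of 821. Its log2 fold change was -0.12 (SE 0.079, adjusted p = 0.228), with an interval of -17.3% to 2.42%. The mice at the extremes were shared. Wild-type mouse T61334 and rNLS8 mouse T61340, both of batch A, were the lowest of their genotypes for both genes, and rNLS8 mouse T_70267 was the highest rNLS8 mouse for both.

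**Figure D3:**
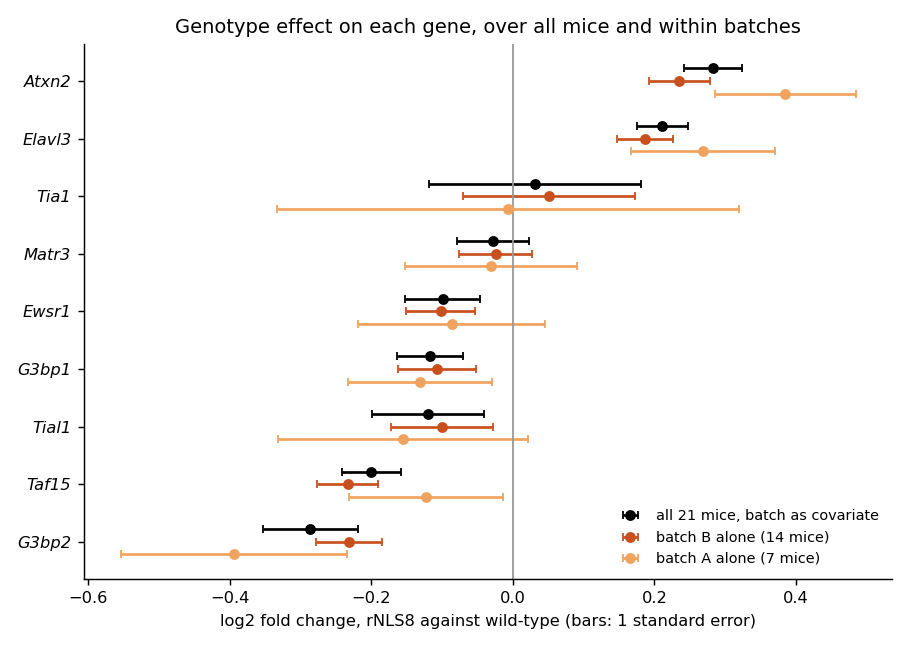
Log2 fold change (x axis, rNLS8 against wild-type) of each gene (y axis) over all 21 mice with batch as covariate, in batch B alone and in batch A alone, with bars of 1 standard error. Atxn2 (0.28 over all mice) and Elavl3 (0.21) lie right of 0 in all 3 fits and G3bp2 (-0.29), Taf15 (-0.20) and G3bp1 (-0.12) left of 0, and the bars of batch A are the widest.

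The genotype effect was not shown to differ between batches for any of these genes. In edgeR's test of genotype by batch, 0% of all genes tested passed (0 of 18248, with 1030 at an unadjusted p under 0.05), and the smallest unadjusted p of the 9 genes was 0.175, for G3bp2.

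Next, the variation between mice of the same genotype and batch was compared among the genes, a question raised after the values of Tia1 and Tial1 had been seen. Each value was expressed as the log2 deviation from the mean of its genotype and batch, and all 36 pairs were correlated over the 21 mice, with 100000 permutations within genotype and batch. Apart from Tia1 with Tial1, the pairs for which both coefficients passed an adjusted p of 0.05 over the 36 pairs are given below. Tia1 and Tial1 were the most alike, with Pearson's r of 0.94 and Spearman's rho of 0.94, given as a description with no p because this pair had prompted the question. Without mice T61334 and T61340, r was 0.91, and within batches it was 0.99 in A and 0.86 in B. G3bp1 and G3bp2 followed each other with r of 0.74 and rho of 0.74 (permutation p = 6e-05 and 8e-05, adjusted 0.00108 and 0.00144), and r was 0.68 without the 2 mice farthest from the median, 0.96 in batch A and 0.74 in batch B.

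Of the other pairs that passed, the correlation was positive for all but Ewsr1 with G3bp1. Ewsr1 went with Tial1 (r = 0.75, rho = 0.72, adjusted permutation p = 0.0173 and 0.0175) and with Tia1 (r = 0.73, rho = 0.77, adjusted permutation p = 0.0316 and 0.0175). Without mice T60303 and T_70267 these correlations were 0.63 and 0.65, and they were 0.75 and 0.73 in each batch. Because Tia1 and Tial1 varied together, the correlations of Ewsr1 with them are not separate results. Matr3 went with G3bp2 (r = 0.76, rho = 0.74, adjusted permutation p = 0.0162 and 0.0146), with r of 0.67 without mice T61342 and T60303, 0.88 in batch A and 0.63 in batch B. Ewsr1 went against G3bp1 (r = -0.58, rho = -0.58, adjusted permutation p = 0.0316 and 0.0310), with r of -0.65 without mice T60303 and T_70267, -0.66 in batch A and -0.58 in batch B. For Matr3 and G3bp1, r was 0.58 (adjusted permutation p = 0.0438) and rho 0.52 (adjusted permutation p = 0.0748). The values of a mouse share 1 library and its scaling.

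**Figure D4:**
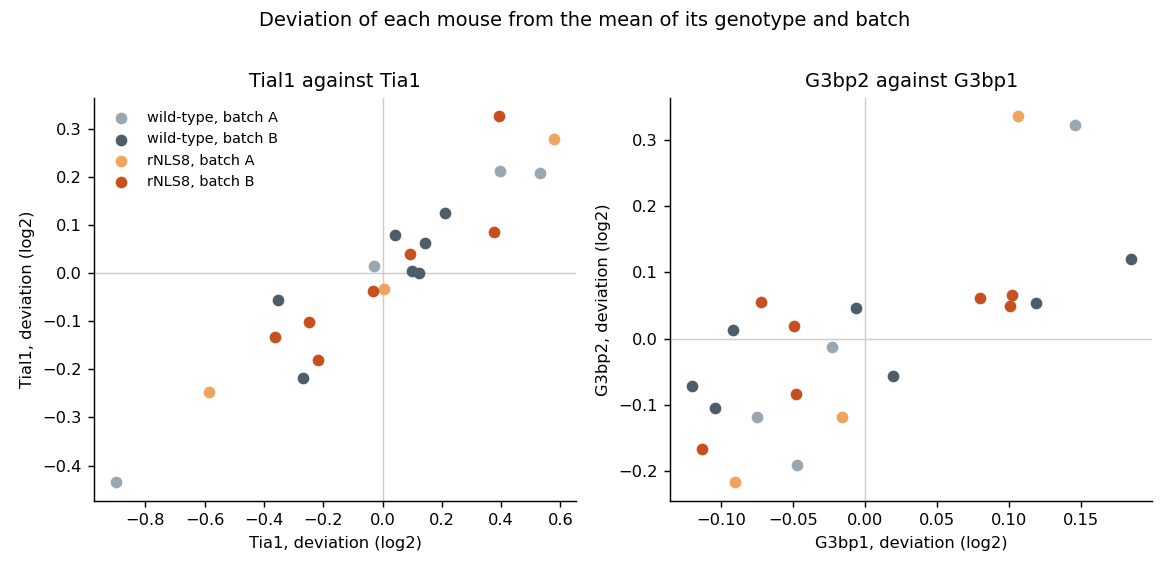
Deviation of each of the 21 mice from the mean of its genotype and batch (log2), for Tial1 against Tia1 (left) and G3bp2 against G3bp1 (right), coloured by genotype and batch. The points of both genotypes and both batches follow 1 rising band, with r of 0.94 on the left and 0.74 on the right.

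How widely the Tia1 pattern was shared was then described over the 14514 genes with a mean above 50 normalized counts in wild-type mice. The genes were chosen from these values, so no test was made. The deviations of 96 genes (0.661%) correlated with those of Tia1 above 0.9, and Tial1 ranked 34 among them. The 13 highest, all between 0.96 and 0.98, were in this order Tmem181b-ps, Ttc14, Trank1, Nktr, Msantd2, Slf2, Akap8, Nvl, Clk1, Gm40841, Ogt, Pfkfb2 and Srsf11. Among them, Clk1 encodes a kinase of SR splicing factors, Srsf11 an SR protein and Ogt the O-GlcNAc transferase. None of the 13 passed the test between the genotypes in edgeR (smallest adjusted p = 0.0644, for Akap8, the only one with an unadjusted p under 0.05). At the opposite end, 5 genes were below -0.9, namely Zdhhc3 (-0.93), a palmitoyltransferase, Gm15459 (-0.92), Ddx24 (-0.91), Eif3c (-0.90) and Fto (-0.90). Of these, Eif3c (log2 fold change 0.31, adjusted p = 0.000132) and Fto (-0.29, adjusted p = 9.09e-06) differed between the genotypes. In the annotation used here (GENCODE M21), 18 of the 28 transcript models of Tia1 are retained-intron or nonsense-mediated-decay models. The table counts each gene once, so the models were not separated.

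To place these genes in their pathways, related lists were read from the same fit. Of 28 further stress granule components, 11 rose, 3 fell and 14 did not pass the test, with a median log2 fold change of 0.07. The largest increases were those of Fxr2 (0.55, adjusted p = 1.66e-09), a paralog of the fragile X protein, and of the poly(A)-binding proteins Pabpc4 (0.52, adjusted p = 3.43e-09) and Pabpc1 (0.45, adjusted p = 3.19e-09). Stau2, a double-stranded RNA-binding protein of dendritic mRNA transport, fell by 0.41 on the log2 scale (adjusted p = 2.43e-08), and Cirbp (-0.19, adjusted p = 0.00633) and Serbp1 (-0.18, adjusted p = 0.00551) also fell.

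Of 7 genes of the eIF2α kinases and phosphatase, 6 rose and 0 fell. In batch A alone 1 rose and in batch B alone 5, with 0 lower in either. With upper-quartile factors, or without mouse T61342, 6 rose and 1 fell. Eif2ak2, which encodes the kinase PKR activated by double-stranded RNA, rose most. It had 98 to 153 normalized counts in wild-type and 209 to 524 in rNLS8 mice, and its log2 fold change was 1.31 (SE 0.106, adjusted p = 5.94e-10). Ppp1r15a, the stress-induced phosphatase subunit GADD34, had 0.46 (adjusted p = 6.94e-05) and Eif2ak1 had 0.23 (adjusted p = 0.000512).

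Among 9 other ALS-linked RNA-binding proteins, 2 rose and 4 fell. Besides Tardbp, Hnrnpa1, which has near-identical pseudogenes that could share its reads, rose (0.19, adjusted p = 0.000163), while Gle1, a factor of mRNA export, fell most (-0.40, adjusted p = 1.84e-08), followed by Smn1 (-0.22, adjusted p = 0.0385) and Rbm45 (-0.18, adjusted p = 0.00938). The call of Smn1 was lost in 11 of the 21 omissions of 1 mouse (T60303, T61342, T_69531, T_70252, T_70267, T61331, T61334, T61345, T_69523, T_70262 and T_70264, with adjusted p up to 0.0881). Of 15 neuronal RNA-binding proteins, 3 rose and 6 fell. The number that fell was 3 without mouse T_69526, T_70252, T61345, T_69527, T_70256 or T_70260, 4 without T60303, T_69531, T_70263 or T61333, and 7 without T61342. Rbfox1 (-0.69, adjusted p = 1.34e-11), Nova1 (-0.60, adjusted p = 3.92e-09) and Khdrbs3 (-0.43, adjusted p = 1.56e-06), all splicing regulators, fell most. The CELF family members Celf3 (0.39, adjusted p = 7.75e-05), Celf4 (0.24, adjusted p = 9.65e-05) and Celf6 (0.22, adjusted p = 0.00671) rose. With library size as the only scaling, 16 stress granule components rose and 1 fell, the ALS-linked proteins split into 2 and 1, and the neuronal ones into 3 and 3.

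The genes for nuclear import and arginine methylation of FET proteins went both ways. Prmt8, the brain-enriched arginine methyltransferase, fell by 0.75 on the log2 scale (adjusted p = 1.39e-11), and Prmt1, the main enzyme of this kind, rose (0.19, adjusted p = 0.00907). Of the import receptors, Tnpo2 rose (0.23, adjusted p = 4.69e-05) and Tnpo1, transportin-1, had a log2 fold change of -0.29 close to the threshold (adjusted p = 0.0489). The call of Tnpo1 was lost in 13 of the 21 omissions of 1 mouse (T_69524, T_69526, T_70252, T_70261, T61331, T61333, T61334, T61345, T_69523, T_69527, T_69532, T_70256 and T_70260, with adjusted p up to 0.0824), in edgeR without batch (0.0527), with Xist as covariate (0.0751), with library size only (0.16) and without a filter (0.0535). Without mouse T61340, Tnpo1 had -0.18. With 44.7% of all genes called, the share called was 14 of 28 for the stress granule components, 60.0% for the neuronal RNA-binding proteins, 66.7% for the ALS-linked proteins, 80.0% for the import and methylation genes and 85.7% for the eIF2α genes, compared with 55.6% for the 9 genes described here.

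**Figure D5:**
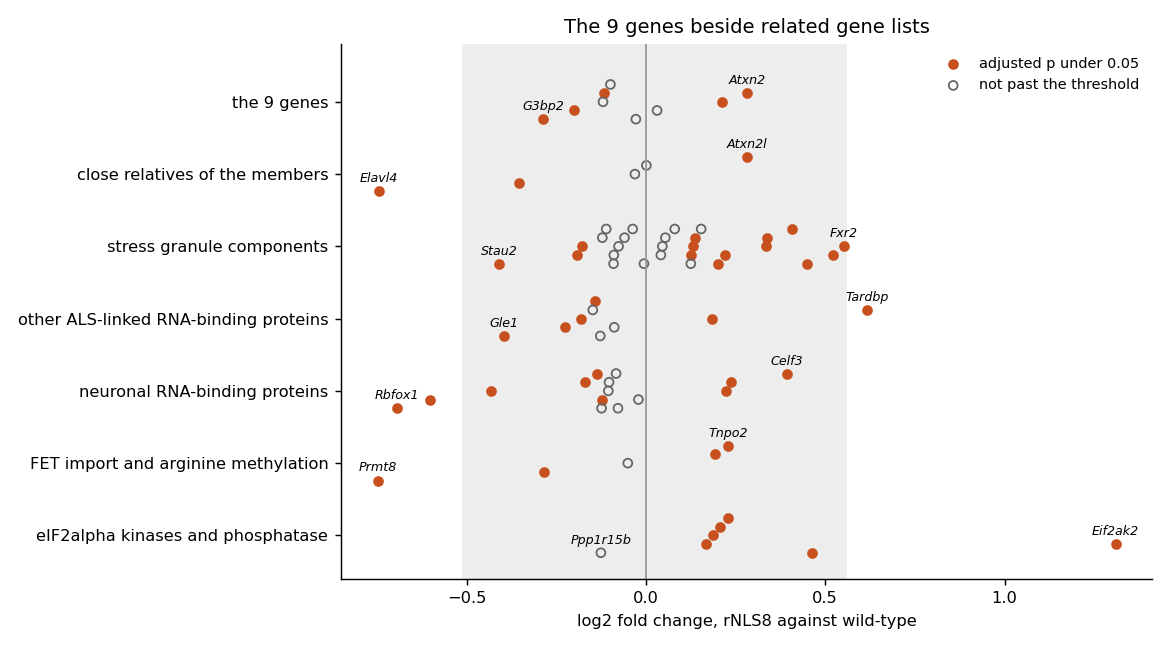
Log2 fold change (x axis, rNLS8 against wild-type) of the 9 genes and of the genes in 6 related lists (y axis), with filled points for an adjusted p under 0.05 and a grey band for the central 90% of all genes tested. All 9 genes lie inside the band, between -0.29 (G3bp2) and 0.28 (Atxn2), whereas Elavl4, Rbfox1, Nova1, Prmt8, Tardbp and Eif2ak2 lie outside it.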

How the data were processed

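The authors sequenced polyadenylated RNA of RIN above 7 at BGI as paired ends of 100 bp and aligned the reads to GRCm38. The submitters' processing notes list mm10, HISAT, HISAT2, Bowtie, Bowtie2 and RSEM without roles, and the counting program and strand setting are not given in the sources used here. What they deposited is an unnormalized table of whole counts, 1 row per symbol. Of 48474 rows, 2553 were further copies of a symbol, held 4.11% of counts, and were kept.

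Counts were tested in R 4.3.3 with edgeR 4.0.16 (filter by expression with a minimum count of 10 and a minimum total of 15, TMM, quasi-likelihood test with batch and genotype, Benjamini-Hochberg adjustment over 18248 genes, threshold 0.05). Standard errors came from the log2 fold change and F statistic. Normalized counts are counts over effective library size times its mean. Paralog ratios were compared by exact permutation within batch. Procedures were tested on simulated data. With log2 changes of 0.3 or 0.5 in 200 genes, the fit over all mice recovered 156 and batch B alone 120. Batch A alone recovered 56. The test of genotype by batch, with the change in batch A only, recovered 32. Both can therefore miss many changes of these sizes. Mice are separate animals, and littermates may be among them. Counting intervals would cover counting error only.

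The 9 genes, lists and tests were chosen with earlier results of these data known. Named were all 9, their close relatives, up to 3 called genes per direction with the largest change in each list, Eif2ak2, Tardbp and the 3 genes nearest to G3bp2. The 13 genes most like Tia1, the 5 below -0.9, overlapping genes and the cell type markers given in the text were outside this rule and named after their values were seen. Positions and transcripts are from GENCODE M21 (GRCm38). The principal transcript was the coding model with the best APPRIS principal tag, and the longest where models tied. Alternatives were DESeq2 1.42.0, other scalings and filters, Xist as covariate, single batches and omission of each mouse. Some genes of these lists are not reported here.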

Additional observations from a re-analysis of the deposited data

How the results depend on the processing

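Atxn2, Elavl3, Taf15 and G3bp2 were called in the same direction with DESeq2 1.42.0 with and without batch, edgeR without batch, Xist as covariate, all other scalings and filters, and every omission of 1 mouse. In batch A alone only Atxn2 was called, so that 1 of the 9 genes and 2195 of all genes passed, against 5 and 8154. Omitting single mice gave 4 to 5 of the 9 genes and 7805 to 8363 of all genes. G3bp1 was lost in edgeR without batch (adjusted p = 0.0551), with Xist as covariate (0.058) and without a filter (0.143), and Ewsr1 and G3bp1 exchanged places without mouse T60303 or T_70267. Omitting rNLS8 mice T61340 and T60303 together, chosen after seeing the data, gave 7668 genes, with Ewsr1 called (adjusted p = 0.048) and G3bp1 not (0.161).

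Of the 9 genes, only Matr3 and Tia1, which were called in no setting, turned sign. The log2 fold change of Matr3 was 0.05 with library size only and 0.019 without mice T61340 and T60303. That of Tia1 was -0.0074 in batch A alone and ranged from -0.054 to 0.10 over omissions of 1 mouse, with -0.054 without rNLS8 mouse T60303, -0.03 without wild-type mouse T61334, -0.02 without rNLS8 mice T_70261 or T_70267 (-0.015 and -0.018) and -0.0061 without wild-type mouse T_70264. The cause was not tested.

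The log2 ratio of G3bp1 to G3bp2 was 0.27 in batch A (adjusted exact permutation p = 0.429) and 0.15 to 0.20 over omissions of 1 mouse. That of Ewsr1 to Taf15 was 0.062 to 0.12, and passed (adjusted exact permutation p = 0.0447) only at 0.12, without wild-type mouse T61333. Omissions of 1 mouse gave 0 to 1 genes whose effect differed between batches, with 1 gene without mice T60303, T61333 or T61345. None of the 9 genes has copy rows, so adding them could give no ratio. No paired analysis was possible because the replicate numbers are mouse numbers that the groups do not share.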
